A study of Homo sapiens with 12 samples.

Results

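YAP1 and WWTR1 (the gene of TAZ), the DNA-binding factor TEAD1 and 7 genes commonly read as their targets or regulators were followed through an RNA sequencing study of A549 cells, an established line of human non-small cell lung cancer. The 10 genes were taken by name: the coactivators YAP1 and WWTR1, the factor TEAD1, the targets ANKRD1, CYR61 (also CCN1), CTGF (also CCN2) and AXL, the feedback genes AMOTL2 and LATS2, and the LIM protein gene AJUBA. Each matched 1 row of the 58735 genes counted, and all 10 were among the 16053 genes with enough counts to be tested. The 4 groups of 3 libraries were shControl cells, which stably carried a control hairpin and are labelled wild type, with sham irradiation; shControl cells 3 days after ionizing radiation; shFXR cells, which stably carried a hairpin against FXR, with sham irradiation; and shFXR cells 3 days after ionizing radiation. The labels used here leave out the radiation dose, the harvest time of the sham cells, the number of hairpins, and whether each stable line is a clone or a pool. The 2 lines may differ in more than the hairpin's target, and such a difference cannot be told apart from the knockdown. The design text calls the 3 libraries of a group biological replicates without saying how they were grown, so the spread between them may be partly technical.

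YAP1 and TAZ are transcriptional coactivators that cannot bind DNA themselves and act mainly through the TEAD factors. The Hippo kinases, with LATS1 and LATS2 as the last step, phosphorylate them and keep them out of the nucleus, while stiff matrix, cell spreading and low cell density favour nuclear entry. Several targets feed back on the pathway: LATS2 is a kinase that inhibits the coactivators, and AMOTL2 is an angiomotin that binds them at junctions. Activity of the pathway is set largely by the phosphorylation and place of these proteins, which RNA counts do not measure.

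TEAD proteins recognise the letters GGAATG, and the RefSeq promoter windows of both classical readout genes below hold them more than once. The sequences are the 250 bases before the RefSeq transcript start (GRCh38.p14), read 5′ to 3′ on the gene's strand, with GGAATG in capitals; both strands were searched, and no match overlapped another. The CTGF sequence is chr6:131951373-131951622 and the ANKRD1 sequence chr10:90921088-90921337, both on the minus strand.
CTGF: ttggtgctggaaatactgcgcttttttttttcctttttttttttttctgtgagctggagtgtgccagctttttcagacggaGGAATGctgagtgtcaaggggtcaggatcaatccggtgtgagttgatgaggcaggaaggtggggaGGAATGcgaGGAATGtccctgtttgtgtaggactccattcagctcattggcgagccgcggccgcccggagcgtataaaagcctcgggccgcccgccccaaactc
ANKRD1: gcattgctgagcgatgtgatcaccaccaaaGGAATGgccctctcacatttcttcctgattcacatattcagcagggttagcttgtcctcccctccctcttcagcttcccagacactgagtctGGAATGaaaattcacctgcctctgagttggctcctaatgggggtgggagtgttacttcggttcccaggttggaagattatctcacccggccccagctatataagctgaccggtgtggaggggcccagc

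The CTGF window held 3 matches, beginning 169, 104 and 95 bases before the start, and the last pair lay 3 bases apart. The ANKRD1 window held 2 matches, beginning 220 and 128 bases before the RefSeq start. The start in the deposited table lies 189 bases upstream of that RefSeq start. By the deposited coordinates the match at 220 thus lies before the gene and the match at 128 inside it. Of 35116 RefSeq promoters, each searched over the same 250 bases before the start, 11.9% held at least 1 match, 0.94% at least 2 and 0.0826% at least 3. YAP1 had 1 match, LATS2 had none, and AXL, AMOTL2 and AJUBA each had 1 match in the second of 2 listed promoters and none in the first. Those second promoters start 7552, 1032 and 5800 bases from the start in the deposited table. The letters were absent from both listed WWTR1 promoters, which start 33441 and 78689 bases from the table's start. A match is a run of letters and not a measured binding site. CYR61 and TEAD1 are named only.

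Library totals ranged from 17140918 to 19036159 counts, and mitochondrially encoded genes took 12.9% to 16.8% of the counts of shControl and at most 13.1% of those of shFXR libraries. FXR was read as NR1H4, the farnesoid X receptor for bile acids. NR1H4 had 385 to 537 counts in each of 6 shControl libraries but 50 to 92 in each of 6 shFXR libraries, a log2 fold change of -2.51 ± 0.16 (SE) in sham and -3.05 ± 0.17 in irradiated cells (adjusted p = 2.8e-10 and 2.9e-11). Among 6 epithelial markers, 5 were lower in sham shFXR than in sham shControl cells, where 37.4% of all genes were called. Between the irradiated lines 4 were lower and 1 higher, beside 40.8% of all genes. The higher one was KRT7 (log2 0.28 ± 0.08, adjusted p = 0.012). The summed level of these 6 markers was 6500 to 9090 CPM in sham shControl, 8700 to 10200 in irradiated shControl, 4070 to 5080 in sham shFXR and 4220 to 4590 in irradiated shFXR cells. KRT8 was at 1620 to 6150 CPM, CDH1 at 38.8 to 131 CPM and EPCAM at 2.32 to 6.07 CPM. The 9 fibroblast markers summed to 33.2 to 46.7 CPM in shControl, 44.2 to 58.3 in sham shFXR and 65.9 to 69.7 in irradiated shFXR libraries. Of the 7 that were tested, 2 were higher and 3 lower in sham shFXR than in sham shControl cells, and 6 were higher and 0 lower after radiation. With radiation 0 of the 7 fibroblast markers passed the test in shControl and 4 rose in shFXR cells, and the responses differed for 3. Over all genes 10%, 21.0% and 15% were called in these comparisons. DCN, the decorin gene, stood at 9.71 to 31.2 CPM and was higher in shFXR cells (log2 0.91 ± 0.13 in sham and 1.39 ± 0.13 after radiation, adjusted p = 1.2e-05 and 5e-08), THY1 at 9.78 to 17.5 CPM and FAP at 4.86 to 11.1 CPM. COL1A2 and COL3A1 stayed under 1 CPM. PTPRC, a defining leukocyte gene, had at most 2 counts in a library and CDH5, a defining endothelial gene, at most 3. PECAM1, another endothelial marker, reached 56 counts and was lower in shFXR cells (log2 -2.47 ± 0.64 in sham, adjusted p = 0.0045), and CD14 alone carried most of the leukocyte sum. CD14 was lower in shFXR cells (log2 -2.4 ± 0.22 in sham and -1.2 ± 0.21 after radiation, adjusted p = 6e-08 and 0.00015). With radiation it rose in shFXR cells (log2 0.70 ± 0.24, adjusted p = 0.042). The part of these marker differences in the results below was not tested.

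Between the sham lines ANKRD1, CYR61, CTGF, AXL, LATS2, TEAD1 and YAP1 stood higher with the FXR hairpin, WWTR1 stood lower, and AMOTL2 and AJUBA did not pass the test. Levels are CPM (TMM-scaled read counts divided by the library total in megareads, mean ± SD, n = 3), changes are log2 fold changes ± SE, and adjusted p values are from edgeR's quasi-likelihood test over all genes, called under 0.05. Of the 10 members, 7 rose and 1 fell in sham shFXR against sham shControl cells. Among all genes tested, 37.4% were called in this comparison, 18% higher and 19.4% lower. With libraries scaled by total counts alone, 3820 genes were higher and 2465 lower, against 2885 and 3118 after TMM scaling. The members' median log2 fold change was 0.50 (all genes -0.01). After radiation, 4 members were higher and 2 lower in shFXR than in shControl cells (all genes 40.8% called, 19.5% higher and 21.3% lower), with a median of -0.08 (all genes -0.00099).

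Radiation moved fewer members, and in shControl cells the called ones rose. In shControl cells 4 members rose and 0 fell (all genes 10% called, 5.07% higher and 4.96% lower), with a median of 0.21 (all genes -0.0031). In shFXR cells 0 rose and 1 fell (all genes 21.0% called, 10.9% higher and 10.2% lower), with a median of -0.15 (all genes 0.019). The response to radiation was lower in shFXR than in shControl cells for 4 members and higher for 0 (all genes 15% called, 7.31% higher and 7.67% lower), with a median difference of -0.36 against 0.01 over all genes. These comparisons share libraries: the sham shControl libraries enter both the radiation response in shControl cells and the sham comparison of the lines, so a low sham shControl library raises both values. It also lowers the difference of the responses. A high sham shFXR library raises the sham comparison and lowers both the response in shFXR cells and the difference. The comparisons are therefore not independent of each other.

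**Figure D1:**
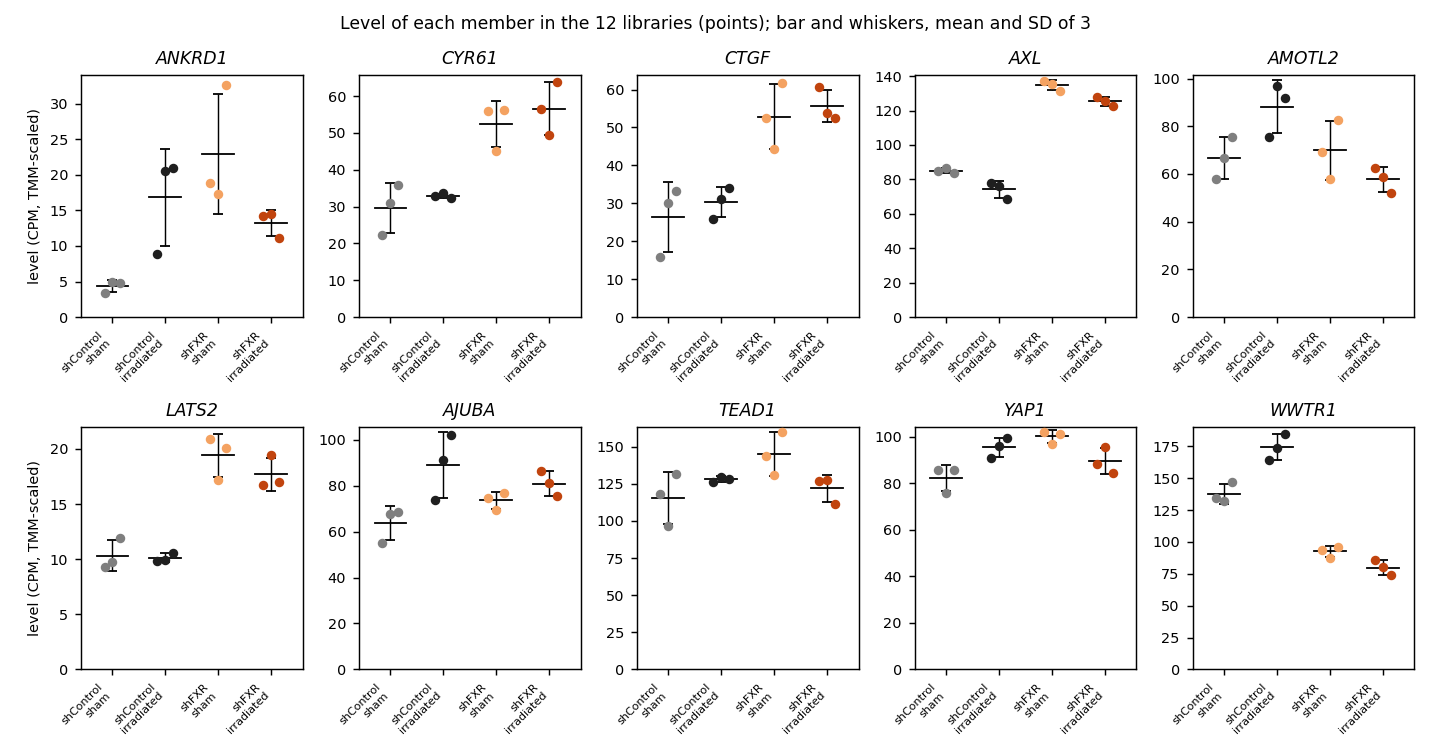
Levels of the 10 genes in TMM-scaled CPM (y axes from 0) in the 12 libraries, 3 points per group, with the group mean as a bar and the SD as whiskers. CYR61, CTGF, AXL and LATS2 separate the lines at both treatments, WWTR1 separates them the other way, and ANKRD1 is lowest in sham shControl cells.

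ANKRD1 was the member that changed most. It encodes an ankyrin repeat protein first studied in heart muscle and is one of the standard transcriptional readouts of YAP and TAZ. In hg38 the gene (ENSG00000148677) spans 90912096 to 90921276 of chromosome 10, minus strand. In sham shControl cells the 3 libraries were at 3.38, 4.95 and 4.83 CPM (64, 82 and 92 counts). In irradiated shControl cells they were at 8.94, 20.6 and 20.9 CPM. Each irradiated library thus lay above each sham library, and library 1 lay well below the others of its group. In sham shFXR cells the values were 18.8, 17.3 and 32.6 CPM, and in irradiated shFXR cells 14.2, 14.4 and 11.2 CPM. Those groups did not overlap either, in the opposite order.

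The 4 group means of ANKRD1 were 4.38 ± 0.876, 16.8 ± 6.83, 22.9 ± 8.46 and 13.3 ± 1.81 CPM, a 5.23-fold range. Radiation raised it 3.84-fold in shControl cells (log2 1.94 ± 0.29, adjusted p = 0.00027) and lowered it in shFXR cells (log2 -0.79 ± 0.25, adjusted p = 0.029). The difference of these responses was -2.73 ± 0.38 (adjusted p = 3e-04). It was 5.24-fold higher in sham shFXR than in sham shControl cells (log2 2.39 ± 0.28, adjusted p = 1.6e-06). After radiation the groups of the 2 lines overlapped, with a log2 fold change of -0.34 ± 0.25 and a 95% interval from -0.87 to 0.18 (adjusted p = 0.30). The fall in shFXR cells is the least stable of these calls. Its adjusted p became 0.23 without sham shFXR library 3, the highest library, where the log2 fold change was -0.45. It was also lost without irradiated shFXR library 1 (0.062), 2 (0.053) or 3 (0.12) and in DESeq2 (0.11). Without irradiated shControl library 1, the difference between the irradiated lines was -0.64 and passed (adjusted p = 0.016).

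CYR61 and CTGF encode secreted matricellular proteins of the CCN family, which bind integrins and growth factors, and are the other classical YAP readouts. CYR61 (ENSG00000142871) lies on chromosome 1 from 85580761 to 85583962 on the plus strand. CTGF (ENSG00000118523) lies on chromosome 6 from 131948176 to 131951373 on the minus strand. CYR61 was at 22.3, 30.9 and 35.7 CPM in sham and 32.8, 33.6 and 32.3 CPM in irradiated shControl cells. The shFXR libraries were at 56.0, 45.2 and 56.2 CPM in sham and 56.5, 49.4 and 63.8 CPM in irradiated cells. Every shFXR library thus lay above every shControl library, while the sham and irradiated libraries of each line overlapped.

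CTGF was at 15.9, 30.0 and 33.3 CPM in sham and 26.0, 31.0 and 34.0 CPM in irradiated shControl cells. The shFXR values were 52.5, 44.4 and 61.7 CPM in sham and 60.6, 53.9 and 52.6 CPM in irradiated cells. The lines separated in the same way as for CYR61, and sham shControl library 1 was the lowest of the 12 for both genes. CYR61 was 1.77-fold higher in sham shFXR cells (log2 0.82 ± 0.13, adjusted p = 5.3e-05) and 1.72-fold higher after radiation (log2 0.78 ± 0.13, adjusted p = 6.9e-05). CTGF was 2.01-fold higher in sham shFXR cells (log2 1.00 ± 0.18, adjusted p = 0.00017) and 1.83-fold higher after radiation (log2 0.88 ± 0.18, adjusted p = 0.00047).

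Radiation gave CYR61 log2 fold changes of 0.15 ± 0.13 in shControl and 0.11 ± 0.13 in shFXR cells (adjusted p = 0.51 and 0.58), with 95% intervals from -0.13 to 0.43 and from -0.15 to 0.37. For CTGF they were 0.20 ± 0.18 and 0.07 ± 0.17 (adjusted p = 0.51 and 0.80), with intervals from -0.17 to 0.58 and from -0.28 to 0.43. Without sham shControl library 1 the shControl values turned to -0.02 for CYR61 and -0.06 for CTGF. Rises as large as that of ANKRD1 in shControl cells therefore lie outside the intervals of CYR61 and CTGF.

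AXL encodes a receptor tyrosine kinase bound by the ligand GAS6, and its level is a known correlate of drug resistance in lung cancer lines. AXL (ENSG00000167601) lies on chromosome 19 from 41219203 to 41261766 on the plus strand. It was at 84.7, 86.5 and 84.0 CPM in sham and 78.0, 76.4 and 68.7 CPM in irradiated shControl cells. With the FXR hairpin it stood at 137, 135 and 132 CPM in sham and 128, 125 and 123 CPM in irradiated cells. The replicates were close together, and the lines were far apart compared with their spread. AXL was 1.58-fold higher in sham shFXR cells (log2 0.66 ± 0.07, adjusted p = 2.2e-07) and 1.68-fold higher after radiation (log2 0.75 ± 0.07, adjusted p = 3.5e-08). Its irradiated libraries lay below its sham libraries in both lines, but the changes did not pass (log2 -0.19 ± 0.07, adjusted p = 0.077, with the control hairpin and -0.10 ± 0.07, adjusted p = 0.29, with the FXR hairpin). The shControl value passed narrowly with DESeq2 (adjusted p = 0.044) and among genes of at least 5 CPM (adjusted p = 0.049).

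LATS2 encodes the Hippo kinase that phosphorylates YAP and TAZ, and is itself induced by them. LATS2 (ENSG00000150457) lies on chromosome 13 from 20973032 to 21061547 on the minus strand. It was at 9.29, 9.78 and 11.9 CPM in sham and 9.87, 9.89 and 10.6 CPM in irradiated shControl cells. Its shFXR libraries stood at 20.9, 17.2 and 20.1 CPM in sham and 16.7, 19.4 and 17.01 CPM in irradiated cells. The lines did not overlap, and the treatments did. LATS2 was 1.88-fold higher in sham shFXR cells (log2 0.91 ± 0.12, adjusted p = 5e-06) and 1.75-fold higher after radiation (log2 0.81 ± 0.12, adjusted p = 1.8e-05). Radiation gave -0.03 ± 0.12 and -0.13 ± 0.11 (adjusted p = 0.90 and 0.44), with 95% intervals from -0.29 to 0.23 in shControl and from -0.37 to 0.10 in shFXR cells.

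AMOTL2 encodes an angiomotin that binds YAP at junctions and supports its phosphorylation by LATS kinases. AMOTL2 (ENSG00000114019) lies on chromosome 3 from 134355874 to 134375479 on the minus strand. It was at 58.0, 66.7 and 75.3 CPM in sham and 75.7, 97.0 and 91.9 CPM in irradiated shControl cells. In the shFXR line it was at 69.2, 58.0 and 82.6 CPM in sham and 62.6, 58.6 and 52.0 CPM in irradiated cells. The sham lines overlapped, whereas every irradiated shFXR library lay below every irradiated shControl library. It did not separate the sham lines (log2 0.07 ± 0.12, adjusted p = 0.69), but was lower in shFXR cells after radiation (log2 -0.61 ± 0.12, adjusted p = 4e-04).

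Radiation raised AMOTL2 in shControl cells (log2 0.40 ± 0.12, adjusted p = 0.037) and gave -0.28 ± 0.12 in shFXR cells (adjusted p = 0.11), and these responses differed by -0.68 ± 0.17 (adjusted p = 0.013). The rise in shControl cells did not pass under 7 of 21 alternatives. Its adjusted p was 0.13 or 0.056 when sham shControl library 1 or 2 was left out, 0.18 or 0.12 when irradiated shControl library 2 or 3 was, and 0.051 when sham shFXR library 1 was. The difference of the responses passed under all 20 alternatives run for it.

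AJUBA encodes a LIM protein that binds LATS kinases and restrains them. AJUBA (ENSG00000129474) lies on chromosome 14 from 22971174 to 22982642 on the minus strand. It was at 55.1, 67.8 and 68.4 CPM in sham and 73.8, 91.1 and 102 CPM in irradiated shControl cells. In shFXR cells it was at 74.4, 69.5 and 76.8 CPM in sham and 86.2, 80.9 and 75.6 CPM in irradiated cells. It rose with radiation in shControl cells (log2 0.48 ± 0.10, adjusted p = 0.0066), where the groups did not overlap. The shFXR groups overlapped, with a value of 0.14 ± 0.10 (adjusted p = 0.37). The responses differed by -0.34 ± 0.15, which did not pass (adjusted p = 0.12), so a different response in the lines is not shown. That difference passed under 3 of 20 alternatives. Between the lines AJUBA gave 0.21 ± 0.10 in sham cells, where the lines did not overlap, and -0.14 ± 0.10 in irradiated cells (adjusted p = 0.13 and 0.31). The sham value passed under 4 of 21 alternatives and the irradiated value under 1 of 21.

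YAP1 and WWTR1 encode the coactivators themselves, YAP and TAZ, which are paralogs. YAP1 (ENSG00000137693) lies on chromosome 11 from 102110461 to 102233423 on the plus strand. WWTR1 (ENSG00000018408) lies on chromosome 3 from 149517235 to 149736714 on the minus strand. WWTR1 was at 135, 132 and 147 CPM in sham and 164.5, 174 and 185 CPM in irradiated shControl cells. In the shFXR line it was at 94.0, 87.4 and 96.2 CPM in sham and 85.5, 80.2 and 74.2 CPM in irradiated cells. None of the 4 groups overlapped another, with irradiated shControl cells highest and irradiated shFXR cells lowest.

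WWTR1 was 1.49-fold lower in sham shFXR than in sham shControl cells (log2 -0.58 ± 0.08, adjusted p = 5.9e-06) and 2.18-fold lower after radiation (log2 -1.12 ± 0.08, adjusted p = 6e-10). Radiation raised it in shControl cells (log2 0.34 ± 0.07, adjusted p = 0.0077) and gave -0.21 ± 0.08 in shFXR cells, just outside the threshold (adjusted p = 0.056). The responses differed by -0.55 ± 0.11 (adjusted p = 0.0029). When only the 6 shControl libraries were fitted, the rise had an adjusted p of 0.056. The value in shFXR cells passed in 10 of 21 alternatives, with adjusted p from 0.0074 to 0.23 over all of them.

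YAP1 varied least of the members, with a 1.22-fold range of group means. It was at 85.7, 75.7 and 85.6 CPM in sham and 91.1, 96.1 and 99.4 CPM in irradiated shControl cells. In shFXR cells it was at 102, 97.0 and 101 CPM in sham and 88.5, 95.7 and 84.6 CPM in irradiated cells. Each irradiated library lay above each sham library in shControl cells and below each sham library in shFXR cells. How many of all genes separate in this way was not counted. Neither change passed (log2 0.21 ± 0.07 in shControl and -0.16 ± 0.07 in shFXR cells, adjusted p = 0.073 and 0.13). Their difference passed (-0.37 ± 0.10, adjusted p = 0.022). The call was lost when irradiated shControl library 2 or 3 was left out (adjusted p = 0.05, rounded, and 0.059), and likewise for sham shFXR library 1 (0.054) and irradiated shFXR library 1 or 3 (0.054 and 0.071). YAP1 was 1.22-fold higher in sham shFXR cells (log2 0.28 ± 0.07, adjusted p = 0.0052), and after radiation gave -0.09 ± 0.07 with overlapping groups (adjusted p = 0.34).

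**Figure D2:**
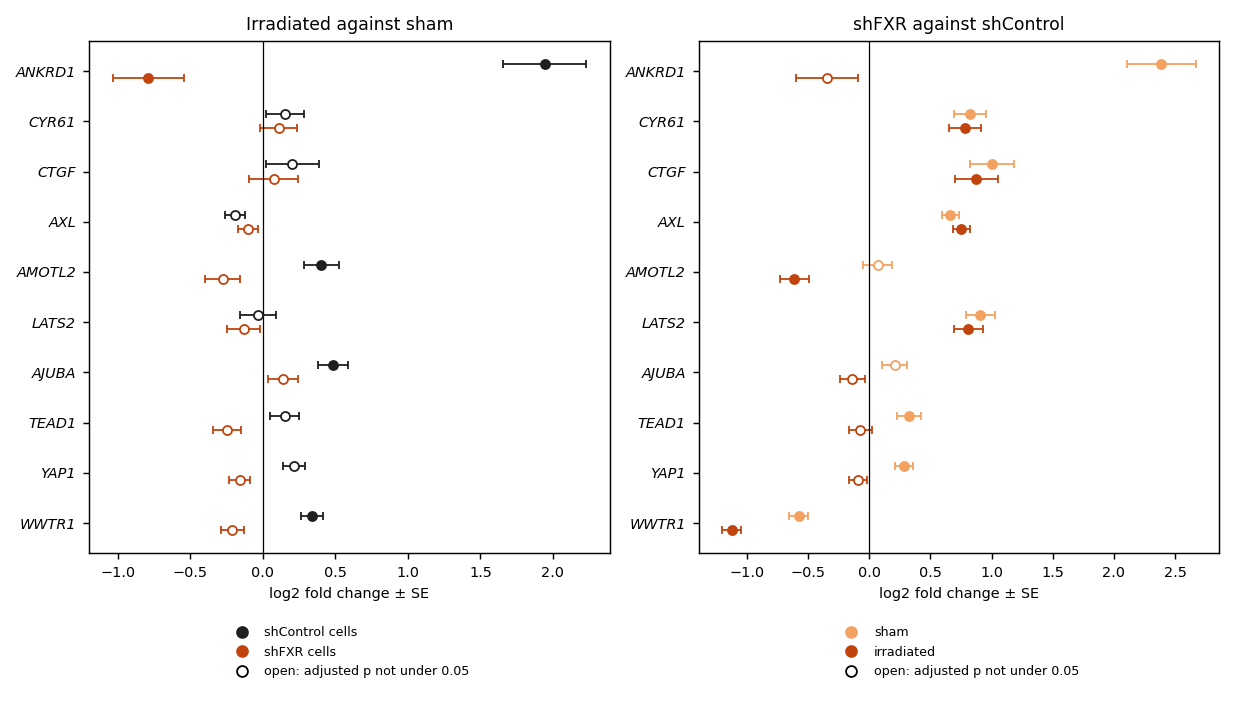
Log2 fold change ± SE of the 10 genes: irradiated against sham in each line (left) and shFXR against shControl at each treatment (right). Filled points passed adjusted p under 0.05. On the left, ANKRD1, AMOTL2, AJUBA and WWTR1 are filled for shControl cells and ANKRD1 alone for shFXR cells; on the right, CYR61, CTGF, AXL and LATS2 are filled and positive at both treatments and WWTR1 is filled and negative at both.

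The balance of the coactivator transcripts differed between the lines. On a scale of CPM per kilobase of the gene length in the deposited table, WWTR1 stood at 16.4 ± 0.918 and YAP1 at 13.1 ± 0.917 in sham shControl cells. In sham shFXR cells WWTR1 stood at 11 ± 0.543 and YAP1 at 15.9 ± 0.442. The ratio of WWTR1 to YAP1 per length was 1.18 to 1.31 in the sham shControl libraries, 1.35 to 1.39 in the irradiated shControl libraries, 0.674 to 0.711 in the sham shFXR libraries and 0.627 to 0.724 in the irradiated shFXR libraries. WWTR1 was thus the more abundant transcript of the pair in each of the 6 shControl libraries and the less abundant in each of the 6 shFXR libraries. The sum of the pair was 29.5 ± 1.65 in sham shControl, 35.9 ± 1.86 in irradiated shControl, 26.9 ± 0.959 in sham shFXR and 23.7 ± 1.31 CPM per kilobase in irradiated shFXR cells. The lengths are those the authors deposited, and a level per length depends on which transcripts they cover.

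**Figure D3:**
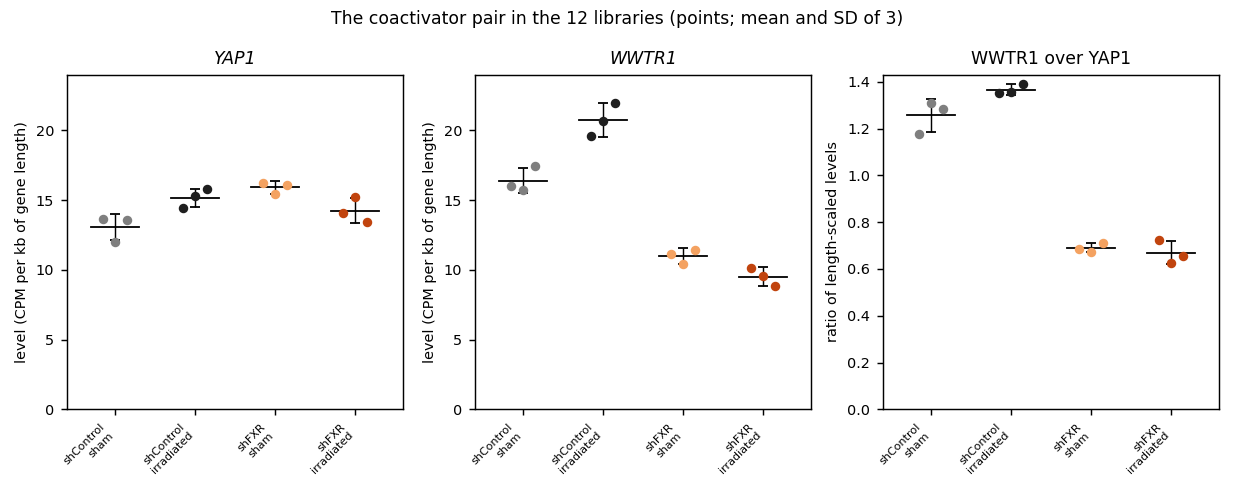
YAP1 and WWTR1 in CPM per kilobase of gene length, and the ratio of WWTR1 to YAP1, in the 12 libraries (points; bar and whiskers, mean and SD of 3; y axes from 0). The ratio lies above 1.1 in all shControl libraries and below 0.8 in all shFXR libraries.

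TEAD1 encodes the DNA-binding partner and was the most abundant TEAD gene per length in each group mean. TEAD1 (ENSG00000187079) lies on chromosome 11 from 12674591 to 12944483 on the plus strand. It was at 118, 96.6 and 132 CPM in sham and 126, 129.9 and 128 CPM in irradiated shControl cells. In shFXR cells it was at 144, 131 and 160.2 CPM in sham and 127, 127 and 112 CPM in irradiated cells. The sham shControl libraries spread widely and overlapped the other groups. TEAD1 was 1.25-fold higher in sham shFXR cells (log2 0.33 ± 0.10, adjusted p = 0.011), a call lost without sham shFXR library 3 (adjusted p = 0.064). After radiation the value was -0.07 ± 0.10 (adjusted p = 0.58). The radiation values were 0.15 ± 0.10 (shControl, adjusted p = 0.35) and -0.25 ± 0.10 (shFXR, adjusted p = 0.070, passing under 6 of 21 alternatives). Their difference of -0.40 ± 0.14 lay just outside the threshold (adjusted p = 0.054) and inside it under 8 of 20 alternatives.

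The other TEAD genes followed other patterns. Per length, TEAD1 stood at 11.2 ± 1.73, TEAD2 at 10.3, TEAD4 at 7.71 and TEAD3 at 3.19 CPM per kilobase in sham shControl cells, so that TEAD1 and TEAD2 did not differ beyond the spread of TEAD1. In sham shFXR cells the order was TEAD1 at 14.1 ± 1.42, TEAD4 at 11.5, TEAD2 at 8.15 and TEAD3 at 2.40. TEAD4 rose with the knockdown (log2 0.58 ± 0.10 in sham and 0.81 ± 0.11 after radiation, adjusted p = 0.00016 and 5e-06). It fell with radiation in both lines (log2 -0.58 ± 0.11 in shControl and -0.35 ± 0.10 in shFXR cells, adjusted p = 0.0021 and 0.018). TEAD2 fell in all 4 comparisons of groups, by 0.26 to 0.37 on the log2 scale. TEAD3 was lower in sham shFXR cells (log2 -0.41 ± 0.15, adjusted p = 0.043) and gave 0.42 ± 0.15 with radiation there (adjusted p = 0.061). TEAD1 made up 34.6% ± 5.35 of the summed TEAD level per length in sham shControl, 43.1% ± 0.256 in irradiated shControl, 39.0% ± 3.49 in sham shFXR and 38.6% ± 2.25 in irradiated shFXR cells.

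**Figure D4:**
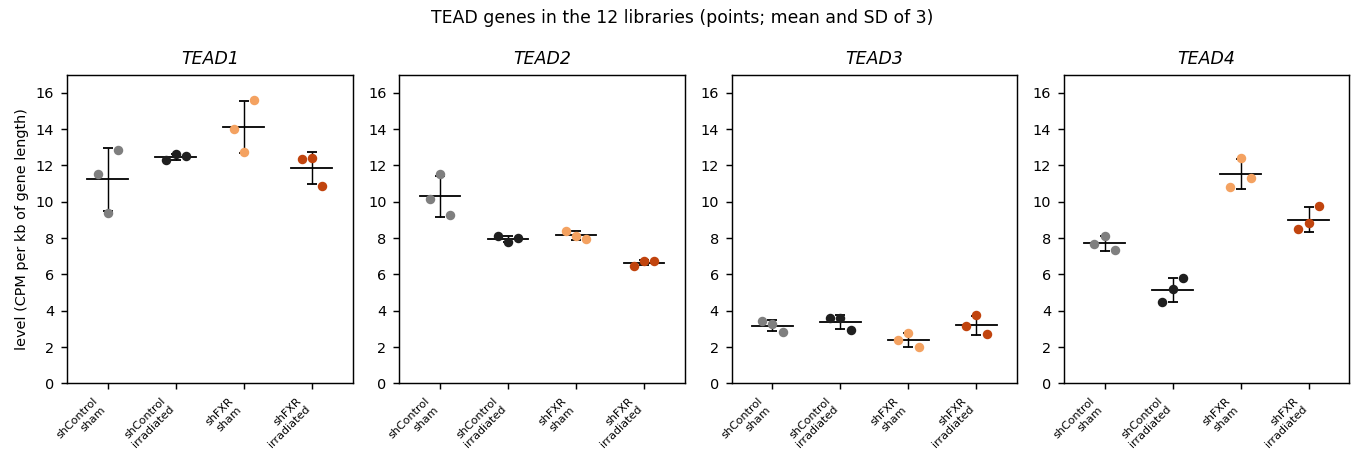
TEAD1, TEAD2, TEAD3 and TEAD4 in CPM per kilobase of gene length in the 12 libraries (points; bar and whiskers, mean and SD of 3; common y axis from 0). TEAD4 is higher in shFXR than in shControl cells at each treatment and lower after radiation in each line.

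Among the VGLL genes, whose products compete with or accompany the coactivators on TEAD, VGLL3 and VGLL4 were expressed, and VGLL1 and VGLL2 had no count in any library. VGLL3 was higher in shFXR cells (log2 0.70 ± 0.13 in sham and 0.35 ± 0.13 after radiation, adjusted p = 0.00025 and 0.033). VGLL4, known as an antagonist of the coactivators, rose with radiation in shControl cells (0.41 ± 0.11, adjusted p = 0.019), and was higher in sham shFXR cells (0.40 ± 0.11, adjusted p = 0.0053). Of the 5 tested genes among TEAD2, TEAD3, TEAD4 and the VGLL genes, 1 rose and 2 fell with radiation in shControl cells, 0 rose and 2 fell in shFXR cells, and the responses differed for 0, where 10%, 21.0% and 15% of all genes were called. In sham shFXR cells 3 of the 5 were higher and 2 lower, beside 37.4% of all genes called. After radiation 2 were higher and 1 lower in shFXR than in shControl cells, beside 40.8% of all genes.

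Ranked by length-scaled level, AXL stood first of the 10 members in sham shControl (16.5 ± 0.250), sham shFXR (26.1 ± 0.552) and irradiated shFXR cells (24.3 ± 0.476 CPM per kilobase). WWTR1 stood first in irradiated shControl cells (20.7 ± 1.204). In sham shControl cells AXL and WWTR1 at 16.5 and 16.4 did not differ beyond their spread, nor did CYR61, CTGF, TEAD1, AMOTL2 and AJUBA, which lay between 10.7 and 12.1. In both shFXR groups CTGF and CYR61 followed AXL and did not differ from each other beyond their spread. Single CTGF libraries of both groups, and a CYR61 library of the irradiated group, lay above AXL libraries, so that the first place is not separated there. In sham shFXR cells YAP1, TEAD1, AJUBA, AMOTL2, ANKRD1 and WWTR1 came next, between 11 and 15.9, with AMOTL2 and ANKRD1 overlapping both AJUBA and WWTR1, while every AJUBA library lay above every WWTR1 library. LATS2 had the lowest mean in every group, from 1.81 to 3.48 CPM per kilobase, though its libraries overlapped those of ANKRD1 in sham shControl cells. The spread of log2 CPM over the 12 libraries (root mean square about the mean) ran from 0.124 for YAP1 to 0.948 for ANKRD1. Of all tested genes, 10.2% varied no more than YAP1 and 97.4% no more than ANKRD1.

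A list of 16 further genes from a published YAP and TAZ target signature of human cancers, which also holds ANKRD1, CYR61, CTGF, AXL, AMOTL2 and LATS2, was read beside the members. All 16 were tested. In sham shFXR cells 8 were higher and 2 lower (median log2 0.29, against -0.01 over all genes), and after radiation 7 were higher and 4 lower (median 0.21). These are 62.5% and 68.8% of the list, beside 37.4% and 40.8% of all genes called, and the list gets no test. GADD45A, a stress gene that p53 also induces, was higher by 1.05 ± 0.08 and 0.88 ± 0.08 on the log2 scale, at 29.1 ± 0.913 CPM in sham shControl and 60.2 ± 2.00 CPM in sham shFXR cells. FJX1, which encodes a secreted Golgi-linked protein, was higher by 1.34 ± 0.12 and 1.22 ± 0.12. ASAP1, a regulator of ARF GTPases and the cytoskeleton, was higher by 0.62 ± 0.08 in sham cells, and NT5E, which encodes the ectonucleotidase CD73, by 0.75 ± 0.09 after radiation.

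The list did not move as a block. IGFBP3, which encodes a carrier of insulin-like growth factors, was lower in shFXR cells (-1.26 ± 0.34 in sham, adjusted p = 0.0058, and -1.46 ± 0.35 after radiation, adjusted p = 0.0023), as was FOXF2, a forkhead factor gene (-0.64 ± 0.13 and -0.48 ± 0.14). Under radiation 3 of the 16 rose and 1 fell in shControl cells: GADD45A (0.55 ± 0.08), MYOF (0.41 ± 0.09) and ASAP1 (0.31 ± 0.09) rose and FOXF2 fell by 0.55 ± 0.13. In shFXR cells GADD45A was the 1 gene of the 16 that rose (0.39 ± 0.08) and 0 fell. The called shares of the list were 25% and 6.25%, beside 10% and 21.0% of all genes. The responses differed for MYOF, the myoferlin gene (-0.49 ± 0.13, adjusted p = 0.016), and for no other gene of the list. Like AMOTL2 and WWTR1, MYOF had a called rise in shControl cells. In shFXR cells MYOF showed no clear change (-0.08 ± 0.09, adjusted p = 0.56), and its groups overlapped. The values of AMOTL2 and WWTR1 there were more negative (-0.28 ± 0.12 and -0.21 ± 0.08). They did not pass either (adjusted p = 0.11 and 0.056).

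**Figure D5:**
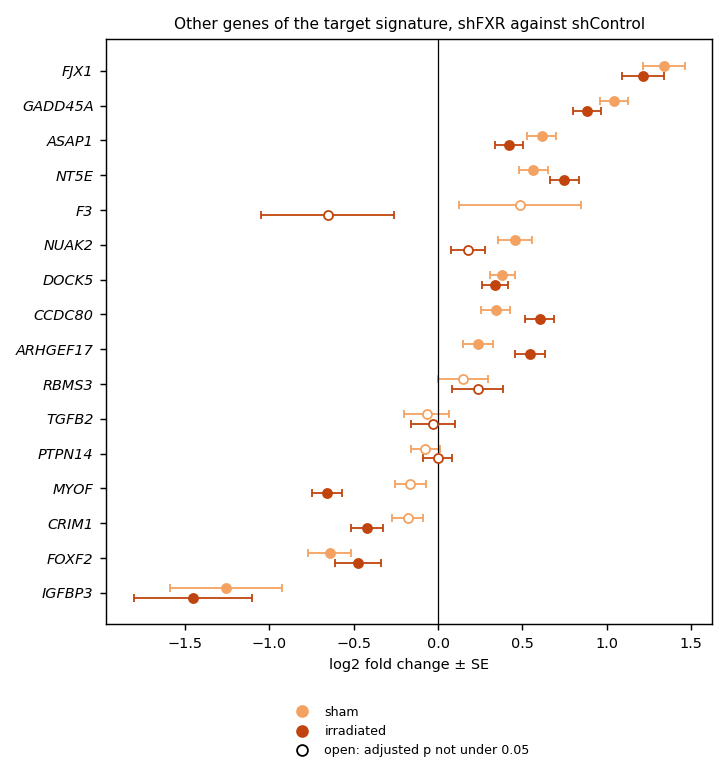
Log2 fold change ± SE of shFXR against shControl cells for the 16 further target genes, in sham and irradiated cells, ordered by the sham value. Filled points passed adjusted p under 0.05. FJX1 and GADD45A lie highest and IGFBP3 lowest at both treatments.

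Hippo regulators that act upstream of the coactivators were read in the same way. Of 28 listed genes 26 had enough counts to be tested. In sham shFXR cells 7 were higher and 1 lower (median log2 0.18), and after radiation 7 were higher and 7 lower (median -0.04). The called share of 30.8% in sham cells lay below the 37.4% of all genes, and the 53.8% after radiation stands beside 40.8%. WTIP, a LIM protein gene of the AJUBA family, was higher by 1.29 ± 0.11 in sham and 1.30 ± 0.11 in irradiated cells (10.3 ± 1.13 CPM in sham shControl, 25.3 ± 0.743 CPM in sham shFXR cells). MAP4K4, a kinase that can activate LATS, was higher by 0.60 ± 0.07 and 0.44 ± 0.07, and the junction gene TJP1 by 0.58 ± 0.08 and 0.27 ± 0.08. AMOT, the founding angiomotin gene, was lower by far, at -1.49 ± 0.24 and -1.85 ± 0.23 (adjusted p = 5.6e-05 and 2.5e-06), from few counts (3.05 ± 0.437 CPM in sham shControl and 1.08 ± 0.128 CPM in sham shFXR cells).

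Under radiation, 3 regulators rose and 0 fell in shControl cells: MAP4K4 (0.31 ± 0.07), STK4, which encodes the Hippo kinase MST1 (0.33 ± 0.08), and TAOK1 (0.36 ± 0.11). In shFXR cells 1 rose and 5 fell, among them STK3, which encodes MST2 (-0.39 ± 0.10), WWC2 (-0.41 ± 0.12) and TJP1 (-0.26 ± 0.08). The responses were lower in shFXR cells for WWC1, a scaffold gene also known as KIBRA (-0.48 ± 0.13, adjusted p = 0.017), and MAP4K3 (-0.49 ± 0.14, adjusted p = 0.021). None were higher. The called shares of the list, 11.5% in shControl, 23.1% in shFXR and 7.69% for the difference, stand beside 10%, 21.0% and 15% of all genes, so these counts show nothing particular to the regulators. PTPN14, which stands in this list and among the target genes, was not called in any of the 5 comparisons.

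Per kilobase, CYR61 and CTGF (12.1 and 11.3 CPM per kilobase in sham shControl cells) stood above NOV, WISP2 and WISP1 (2.30, 1.82 and 1.22). Among the other 4 CCN genes, WISP2 (CCN5) was higher in shFXR cells by 1.32 ± 0.11 in sham and 1.71 ± 0.11 after radiation (adjusted p = 1.5e-08 and 4.6e-10), from 9.09 ± 0.647 CPM in sham shControl to 22.7 ± 1.96 CPM in sham shFXR cells. NOV (CCN3) was lower in sham shFXR cells (-0.70 ± 0.16, adjusted p = 0.0019) and rose there with radiation (0.73 ± 0.16, adjusted p = 0.0031). WISP1 (CCN4) was not called in any comparison, and WISP3 (CCN6), with at most 5 counts in a library, was not tested.

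Genes whose pattern over the 12 libraries was most like a readout gene were found among 10488 protein-coding genes with a mean of at least 5 CPM, by the root mean square difference of centred log2 CPM. For CYR61 they were GALNT18, a glycosyltransferase gene (0.136), SCARA3, a scavenger receptor gene (0.142), and JUN, an AP-1 subunit gene (0.145), where the median gene was at 0.473. JUN, for instance, had group means of 34.1 and 42.8 CPM in sham and irradiated shControl and 58.5 and 76.0 CPM in sham and irradiated shFXR cells. For CTGF they were SCARA3 (0.163), ZNF469 (0.184) and CYR61 itself (0.187), against a median of 0.582. For ANKRD1 the nearest were THBD, which encodes thrombomodulin (0.552), ANKRD33B (0.564) and CCND1, the cyclin D1 gene (0.574), against a median of 0.958. A gene level across all libraries would be at 0.948 from ANKRD1. Among the members, TEAD1 and YAP1 were nearest to each other (0.0905), then AXL and LATS2 (0.162) and CYR61 and CTGF (0.187). The libraries share line and treatment, so these distances describe the samples and carry no test.

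No gene that overlaps a member in the annotation had more than 15 counts in a library, the highest being WWTR1-AS1, at 0.44% of the WWTR1 counts. The labels used here do not state a strand setting for the counting, so reads of a member and of an antisense gene cannot be told apart. In bulk RNA, fewer cells with a transcript and less transcript in each cell cannot be told apart either.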

How the data were processed

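Libraries were made from poly-A RNA, per the labels' protocols. The deposited table holds a raw count per gene and library. Per the submitters' processing notes, tools included DESeq2 1.20.0, its role unstated, and the genome was hg38. These notes and labels name no aligner, counting tool or strand setting. All 58735 gene coordinates equal those of GENCODE 29. Columns were assigned to samples by the labels' descriptions. The table also gives a gene length in bases, another deposited value, used for levels per kilobase.

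Genes were kept by filterByExpr (minimum count 10, minimum total 15), which left 16053, scaled by TMM and fitted with edgeR 4.0.16 (glmQLFit, glmQLFTest; R 4.3.3) with 1 coefficient per group over all 12 libraries (residual degrees of freedom 8, common dispersion as a coefficient of variation 0.0874). The 4 pairwise contrasts and the difference of the radiation responses were tested with Benjamini-Hochberg adjustment over all genes. SE was taken as log2 fold change over the root of the F statistic. The fit was tested on simulated counts with the same spread per gene in all groups. That test cannot tell how the fit handles groups of unequal spread. Library totals were 17140918 to 19036159 counts, and counts below 100, as for ANKRD1 in sham shControl cells, carry the most counting error. Replicate columns were not identical. Members and lists were chosen with earlier results of these data known. Genes named are all members, all TEAD genes, and up to 3 called genes of each pathway list per comparison with the smallest adjusted p. IGFBP3, PTPN14, WISP1 and single marker genes fall outside that rule and were named after their values were seen. Promoters are RefSeq's, found for 8 of 10 members. Alternatives were RLE scaling, total counts, no filter, a mean of 5 CPM, no mitochondrial genes, a replicate block, only the groups compared, DESeq2 1.42.0, limma 3.58.1 with voom sample weights, and leaving out each library. Levels under other scalings were added after seeing the data.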

Additional observations from a re-analysis of the deposited data

Results flagged for a closer look

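For 4 members the test of the difference itself found unlike radiation responses in the lines. ANKRD1 differed by -2.73 on the log2 scale (shFXR minus shControl), AMOTL2 by -0.68, WWTR1 by -0.55 and YAP1 by -0.37. For ANKRD1, WWTR1 and YAP1 each irradiated shControl library lay above each sham one and each irradiated shFXR library below each sham one. For AMOTL2 the shFXR groups overlapped. How many of all tested genes separate in this way was not counted, so the separation adds nothing to the test. Outside the members, the differences of the scaffold gene WWC1 (-0.48), the kinase gene MAP4K3 (-0.49) and the target gene MYOF (-0.49) passed. The called share was 40% of the members, 7.69% of the tested Hippo regulators and 6.25% of the further target genes, beside 15% of all genes. The shares of those 2 further lists thus lay below that of all genes. No group holds more than 3 libraries, so single libraries were not tested as outliers.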

How the results depend on the processing

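Of 50 member-by-comparison results, 26 kept direction and side of the threshold under every alternative run, among them the higher CYR61, CTGF, AXL and LATS2 and the lower WWTR1 in shFXR cells at both treatments. No called change of a member reversed sign. The count of called members was 4 for radiation in shControl cells and ranged from 2, when only the groups compared were fitted, to 6 in DESeq2 over the alternatives that keep all libraries. Of all genes, 551 and 1885 were called in those fits, beside 1611. For radiation in shFXR cells the count of called members was 1, against 2 with RLE scaling, 2 with total counts, 3 with no filter, 5 with only the groups compared, 5 with limma's sample weights, and 0 to 4 when a library was left out. Of all genes, 3389, 3198, 3375 (of 33302 tested), 5063 (of 15294 tested), 6298 and 2106 to 4254 were called in the same order, beside 3379. When a library was left out, the called members numbered 3 to 4 for radiation in shControl cells, 7 to 9 for the sham lines, 6 to 8 for the irradiated lines and 3 to 6 for the difference of responses. Of all genes, 562 to 1932, 5000 to 6252, 5394 to 7283 and 1162 to 3254 were called in the same order. Counts over all genes moved by over 1.5 times as follows. Radiation in shControl cells called 1611 genes, but 551 with only the groups compared, 2659 with limma's weights, 562 without irradiated shControl library 2 and 845 without library 3. Radiation in shFXR cells called 3379, but 6298 with limma's weights, 2219 and 2127 without sham shFXR library 1 or 3, and 2226 and 2106 without irradiated shFXR library 1 or 3. The difference of responses called 2405, but 4300 with limma's weights, 1571 and 1162 without irradiated shControl library 2 or 3, 1595 and 1445 without sham shFXR library 1 or 3, and 1243 without irradiated shFXR library 3. The cause was not tested. Deviations from the group means of same-numbered libraries had correlations of -0.14 to 0.23, the highest for sham and irradiated shControl library 1. Differently numbered libraries were not compared, so whether the numbers pair the samples was not tested. With the replicate block the called members numbered 4, 1, 8, 6 and 5 in the order of the comparisons above, TEAD1 being added to the difference of responses (adjusted p = 0.05, rounded), and all genes called numbered 1553, 3236, 5889, 6463 and 2358. Replicates varied more within sham shControl (median SD of log2 CPM 0.176) and irradiated shControl cells (0.141) than within the shFXR groups (0.113 and 0.112), and the fit pools this spread. Depth limits ANKRD1 and LATS2 most.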
